A study of Homo sapiens with 12 samples.

Results

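The ETS transcription factor family was followed in MDA-MB-231 cells, an established human line from a triple-negative breast cancer, during stimulation with PMA/Ionomycin. The 10 members were taken by gene symbol and are ETS1, ETS2, ELK1, ELK3, ELF1, ELF4, ETV4, ETV5, ERF and GABPA. They are 10 of the 24331 features of the RNA-seq table and 10 of the 28 genes in a list of human ETS factors. Levels are given as FPKM, fragments scaled to the length of the transcript and to the mapped fragments of the library, so that levels can be compared between genes. All 10 members had a mean of at least 1 FPKM over 11 libraries and were tested with the 11256 features above that level.

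Wild-type (WT) cells were compared with cells labelled KO (CRE deleted), here called ΔCRE. In ΔCRE cells, CRISPR/Cas9 had removed the stretch with NFAT and NF-κB binding sites inside the core-regulatory element (CRE) upstream of ETS1, and the protein-coding part of ETS1 was not the target. Both genotypes were sampled without stimulation (0 h) and after 6 h or 24 h of PMA, a phorbol ester that activates protein kinase C, together with Ionomycin, a calcium ionophore. Each of the 6 groups had 2 replicates, which gives 12 libraries. The study screened for clones that carried the deletion, and the number of clones behind the ΔCRE libraries is not given in the sources used here. Were it 1 clone, clone and deletion could not be told apart.

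ETS factors share a winged helix-turn-helix domain that binds a GGAA core in DNA, so that several members can occupy the same site. Many of them act at the end of RAS-ERK signalling, where phosphorylation raises the activity of ETS1, ETS2, ELK1 and the PEA3 group (ETV4 and ETV5) and removes the repressor ERF from the nucleus. In breast carcinoma, ETS1 and ETV4 are known for their link to invasion and to matrix metalloproteinase genes.

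The library labelled ΔCRE 0 h replicate 1 stood apart from the other 11. Its FPKM summed to 1423334.5, against 566255 to 651080 elsewhere, and its log2 values had a correlation of 0.867 with ΔCRE 0 h replicate 2, where replicates of the other 5 groups reached 0.978 to 0.984. All 12 genes of a list of gut epithelial markers were at 10 FPKM or more in this library, with a sum of 11866 FPKM, whereas that sum was 2.23 to 3.57 FPKM in the others and 4 of the genes (REG1A, CDX1, CDX2 and VIL1) were listed at 0 in all 11. The 5 mesenchymal markers of MDA-MB-231 cells (VIM, CD44, AXL, CAV1 and MSN) summed to 1496 FPKM there and to 2149 to 3337 FPKM in the others. VIM and MSN were below the range of the others, and CD44, AXL and CAV1 lay inside it. Of 5 genes known to be low or absent in the line, PGR was listed at 0 in the 11 libraries, CDH1 was at no more than 0.0318 FPKM and ESR1 at no more than 0.00894 FPKM. The other 2 were present in all 11, ERBB2 at 9.68 to 15.4 FPKM and EPCAM at 2.02 to 3.38 FPKM. In the library that stood apart, EPCAM was at 1138.7 FPKM, CDH1 at 52.3 FPKM and ERBB2 at 52.0 FPKM, with PGR at 0.0128 FPKM and ESR1 at 0. EPCAM and CDH1 are also on the gut list, and EPCAM made up most of that list's sum in the 11 libraries. The outlying library is therefore described apart, and every test below uses 11 libraries with ΔCRE 0 h replicate 2 as the lone unstimulated ΔCRE library, assumed to vary like the other groups. With all 12 libraries in 1 fit, no member passed the test between the genotypes at any time point.

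The deposited values keep no fragment counts. A relative depth read from the smallest steps among low FPKM values was 0.730 to 1.19 in the 11 libraries, with WT 0 h replicate 1 set to 1, and the ΔCRE 6 h libraries were the shallowest at 0.730 and 0.820. This estimate is rough, since 9.98% to 18.8% of the low features of a library sat on its step. The part of depth in the differences at 6 h was not tested.

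The deletion was accompanied by less ETS1 RNA at each time point. Without stimulation, ETS1 was at 24.0 and 23.7 FPKM in the WT libraries and at 16.5 FPKM in the ΔCRE library. At 6 h it reached 139 and 145 FPKM in WT and 62.8 and 62.2 FPKM in ΔCRE cells. At 24 h it was at 36.2 and 39.7 FPKM in WT and at 29.3 and 30.7 FPKM in ΔCRE cells. The genotypes did not overlap at 6 h or 24 h, and each ΔCRE library still held ETS1 RNA. In bulk RNA, less ETS1 per cell cannot be told apart from fewer cells that express it.

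The size of the ETS1 difference changed with time. By limma on log2(FPKM + 1), the log2 fold change of ΔCRE against WT cells was -0.51 ± 0.07 (SE) at 0 h (adjusted p = 0.0132). It was -1.17 ± 0.06 at 6 h (adjusted p = 2.04e-05), where the ΔCRE mean was 43.9% of the WT mean, and -0.33 ± 0.06 at 24 h (adjusted p = 0.0153), where it was 79.0%. The difference at 6 h passed the test in 19 of 19 alternative fits of the 11 libraries. The difference at 24 h passed in 15 of 19, with adjusted p from 0.00607 to 0.102, and missed the threshold without WT 24 h replicate 2, without either ΔCRE 24 h library and when the 24 h libraries were fitted alone. The call at 0 h was lost without WT 0 h replicate 1 (adjusted p = 0.0541; 0.00646 to 0.0541 over 17 alternatives).

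**Figure D1:**
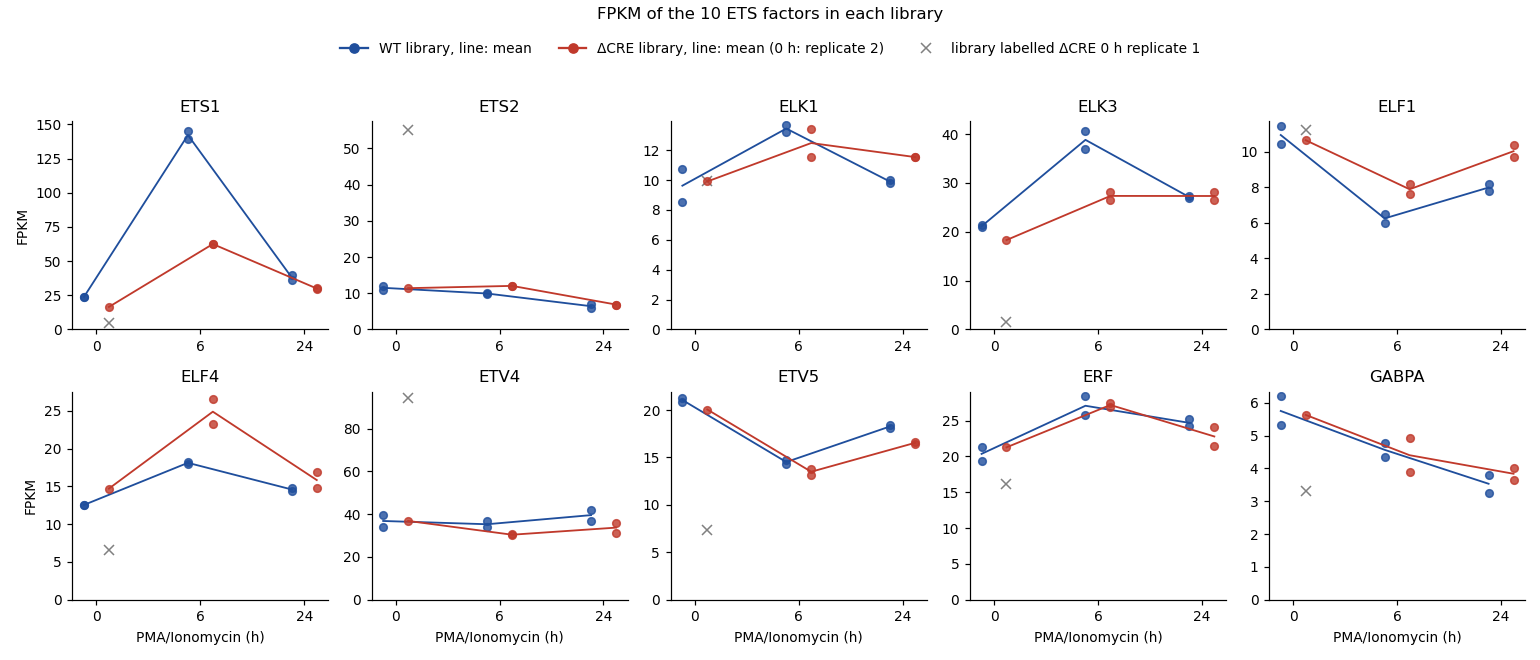
FPKM of each of the 10 ETS factors (vertical axis, from 0) at 0, 6 and 24 h of PMA/Ionomycin (horizontal axis, not to scale in time), with 1 point per library, WT in blue and ΔCRE in red, lines through the means, and a grey cross for the library labelled ΔCRE 0 h replicate 1. ETS1 peaks at 139 and 145 FPKM in WT and at 62.8 and 62.2 FPKM in ΔCRE cells at 6 h, ELF4 is highest in ΔCRE cells at 6 h, and ELF1 dips at 6 h in both genotypes.

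Among unstimulated WT cells the most abundant member was ETV4, a PEA3-group activator, at 39.7 and 34.0 FPKM. ETS1 (24.0 and 23.7 FPKM) came next, followed by ELK3, ETV5 and ERF with means of 21.1, 21.1 and 20.4 FPKM, and the libraries of these last members overlapped in range. ELF4 (mean 12.5 FPKM), ETS2 (11.5 FPKM), ELF1 (10.9 FPKM) and ELK1 (9.62 FPKM) formed the lower group, in which ETS2 overlapped ELF1, and ELF1 overlapped ELK1. GABPA, the DNA-binding subunit of the GABP complex at housekeeping and mitochondrial gene promoters, was the lowest at 5.31 and 6.19 FPKM. After 6 h ETS1 took the first place in both genotypes, ahead of ELK3 in WT cells and of ETV4 in ΔCRE cells.

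Stimulation changed most members in WT cells. At 6 h, 5 of 10 were higher (ETS1, ELK3, ELF4, ELK1 and ERF) and 2 were lower (ELF1 and ETV5), where 23.3% of the 11256 features were called higher and 21.1% lower. The median log2 fold change was 0.17 over the members and -0.00 over all features. At 24 h, 3 members were still above the unstimulated level (ETS1, ELK3 and ERF; 26.5% of all features were higher) and 4 were below it (ELF1, ETV5, ETS2 and GABPA; 28.2% of all features were lower).

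Of the founding pair, ETS1 rose 5.96-fold in mean FPKM in WT cells at 6 h, a log2 fold change of 2.53 ± 0.06 (limma, adjusted p = 1.46e-08). By 24 h it was 1.59-fold above the unstimulated level (0.65 ± 0.06, adjusted p = 4.33e-05) after falling from 6 h to 24 h. ETS2, the closest relative of ETS1 and another target of ERK phosphorylation, took a different course. It was at 10.99 and 12.01 FPKM at 0 h, 10.1 and 9.77 FPKM at 6 h and 6.91 and 5.93 FPKM at 24 h in WT cells. ETS2 thus fell by 0.75 on the log2 scale from 0 h to 24 h (adjusted p = 7.69e-05), and its change by 6 h did not pass the test (-0.19, adjusted p = 0.0692).

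ELK1 and ELK3 belong to the ternary complex factors, which bind serum response elements together with SRF, and ELK3 also acts as a repressor when it is not phosphorylated. In WT cells ELK3 went from 20.9 and 21.3 FPKM to 40.6 and 37.0 FPKM at 6 h and back to 26.9 and 27.3 FPKM at 24 h. The increase at 6 h was 0.85 ± 0.06 on the log2 scale (adjusted p = 1.82e-05), and the groups did not overlap at any pair of times. ELK1 rose less, from 10.7 and 8.54 FPKM to 13.7 and 13.2 FPKM (0.45 ± 0.10, adjusted p = 0.00717), and was at 9.996 and 9.78 FPKM at 24 h. The repressor ERF went from 21.3 and 19.4 FPKM to 28.4 and 25.7 FPKM (0.39 ± 0.08, adjusted p = 0.00405).

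ELF1 and ELF4 belong to the ELF group, whose best known roles are in blood cells, and they moved in opposite directions. ELF1 fell from 10.4 and 11.4 FPKM to 5.99 and 6.50 FPKM at 6 h in WT cells, a log2 fold change of -0.72 ± 0.07 (adjusted p = 0.000113). ELF4 rose from 12.5 FPKM in both libraries to 18.2 and 17.99 FPKM (0.50 ± 0.08, adjusted p = 0.00124). Both moved back towards the unstimulated level by 24 h, when ELF1 was at 8.17 and 7.79 FPKM and ELF4 at 14.8 and 14.4 FPKM.

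Of the PEA3 group, ETV5 fell and ETV4 gave no call. ETV5 was at 20.9 and 21.2 FPKM at 0 h, at 14.3 and 14.7 FPKM at 6 h and at 18.2 and 18.4 FPKM at 24 h (-0.51 ± 0.05 at 6 h, adjusted p = 0.000106). ETV4 stayed within 33.9 to 42.2 FPKM over the 6 WT libraries, and its change by 6 h had a 95% interval of -0.28 to 0.17. GABPA was at 5.31 and 6.19 FPKM at 0 h and at 3.26 and 3.81 FPKM at 24 h (-0.57 ± 0.12, adjusted p = 0.00343). Its interval on the genome overlaps ATP5J, whose mean was 153 FPKM, and how the authors counted strand is not given in the sources used here, so that reads of this pair may not be fully separated.

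In ΔCRE cells the stimulation response was measured against 1 unstimulated library. At 6 h, 4 members were higher (ETS1, ELF4, ELK3 and ERF; 16.8% of all features) and 2 were lower (ELF1 and ETV5; 13.0%). At 24 h, 2 were higher (ETS1 and ELK3; 20.6%) and 3 lower (ETV5, ETS2 and GABPA; 21.0%). ETS1 rose 3.79-fold in mean FPKM by 6 h, 1.86 ± 0.07 on the log2 scale (limma, adjusted p = 5.25e-07). ELF4 rose from 14.7 FPKM to 26.5 and 23.2 FPKM (0.72 ± 0.10, adjusted p = 0.000874), and ELF1 went from 10.6 FPKM to 8.17 and 7.60 FPKM (-0.39 ± 0.09, adjusted p = 0.0122). The call for ERF (0.34 ± 0.10, adjusted p = 0.0292) was lost under quantile normalization and TPM rescaling and without either ΔCRE 6 h library (adjusted p 0.0158 to 0.0994 over 17 alternatives).

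From 6 h to 24 h, 5 members fell in WT cells (ETS1, ETS2, ELK3, ELF4 and ELK1; 26.3% of all features) and 2 rose (ELF1 and ETV5; 20.5%). In ΔCRE cells 4 fell (ETS1, ETS2, ELF4 and ERF; 27.5%) and 2 rose (ELF1 and ETV5; 22.1%). ELK3 was at 28.1 and 26.5 FPKM at 6 h and again at 28.1 and 26.5 FPKM at 24 h in ΔCRE cells, a log2 difference of -0.00 (95% interval -0.15 to 0.14). ELK3 fell by 0.50 over the same span in WT cells. The difference between these courses did not pass the test over all features (interaction 0.50 ± 0.09, adjusted p = 0.121). Nor did the same limma interaction for ELK1 (0.31 ± 0.14, adjusted p = 0.741) or ERF (-0.12 ± 0.11, adjusted p = 0.936), each called in 1 genotype. The calls of ELF4 in WT and of ERF in ΔCRE cells from 6 h to 24 h each held in 13 of 18 alternative fits of the 11 libraries.

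Rescaling every library to the same FPKM sum shifted the median of all features by -0.11 at 6 h in WT and by -0.12 in ΔCRE cells, and the split of calls with it. From 0 h to 6 h in WT cells, 35.02% of the called features were then higher, against 52.5% with FPKM as deposited, and in ΔCRE cells 31.8% against 56.4%. From 6 h to 24 h the share went from 43.7% to 64.3% in WT and from 44.6% to 60.7% in ΔCRE cells, and between genotypes at 24 h from 37.2% to 25.0%. No called member turned its sign under this scaling or quantile normalization.

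The comparison between genotypes at 6 h addressed how the other ETS factors stood when ETS1 was lower than in WT cells. ETS1 was not low in ΔCRE cells at 6 h: at 62.8 and 62.2 FPKM it was above unstimulated WT cells (24.0 and 23.7 FPKM). At 6 h, 2 members were lower in ΔCRE cells (ETS1 and ELK3; 6.22% of all features were lower) and 2 were higher (ELF1 and ELF4; 3.62% were higher). Over all members, the libraries of the genotypes did not overlap for 7 of 10, a pattern shown by 54.6% of all features. The median log2 fold change was -0.07 over the members and 0.01 over all features. The 4 libraries behind these values are the same for every member.

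ELK3 was lower in ΔCRE cells. It was at 40.6 and 37.0 FPKM in WT and at 28.1 and 26.5 FPKM in ΔCRE cells at 6 h, so that each ΔCRE library lay below each WT library. The log2 fold change was -0.49 ± 0.06 (limma, adjusted p = 0.00307), and it passed the test in 19 of 19 alternative fits of the 11 libraries. At 24 h ELK3 gave 0.01 with a 95% interval of -0.13 to 0.16. At 0 h it was at 20.9 and 21.3 FPKM in WT cells and at 18.3 FPKM in the ΔCRE library (-0.20, adjusted p = 0.284).

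ELF4 was higher in ΔCRE cells at 6 h, at 26.5 and 23.2 FPKM against 18.2 and 17.99 FPKM. The log2 fold change was 0.43 ± 0.08 (adjusted p = 0.0116), a mean 1.37 times the WT mean. The call was lost without either WT 6 h library or ΔCRE 6 h replicate 1 (adjusted p 0.00462 to 0.0778 over 19 alternatives). At 24 h ELF4 was at 16.8 and 14.8 FPKM in ΔCRE and at 14.8 and 14.4 FPKM in WT cells (0.11, 95% interval -0.07 to 0.29).

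ELF1 was higher in ΔCRE cells at 6 h by a narrow margin. It was at 8.17 and 7.60 FPKM, above the 5.99 and 6.50 FPKM of WT cells, with a log2 fold change of 0.29 ± 0.07 (adjusted p = 0.0412). The call held in 7 of 19 alternative fits of the 11 libraries, and the adjusted p ran from 0.0335 to 0.237. It was lost without each of the 8 libraries taken at 6 h or 24 h, without the filter on low values, under both other scalings and in the fit of the 6 h libraries alone. At 24 h ELF1 was at 10.4 and 9.68 FPKM in ΔCRE and at 8.17 and 7.79 FPKM in WT cells, a difference of the same size (0.30 ± 0.07) that missed the threshold (adjusted p = 0.0528).

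With 6 h and 24 h averaged, the same 4 members were called: ETS1 (-0.75 ± 0.04, adjusted p = 1.97e-05) and ELK3 (-0.24 ± 0.04, adjusted p = 0.00778) lower among 9.93% of all features, and ELF1 (0.29 ± 0.05, adjusted p = 0.00619) and ELF4 (0.27 ± 0.06, adjusted p = 0.0116) higher among 7.44%. For each of the 4 this average passed the test in 18 of 18 alternative fits of the 11 libraries. Of the other 6 members, ETS2 (0.17, adjusted p = 0.0615), ETV5 (-0.12, adjusted p = 0.0591) and ETV4 (-0.22, adjusted p = 0.0692) came nearest to the threshold. In 18 alternative fits of the 11 libraries, this average passed 2 times for ETS2, 3 times for ETV5 and 3 times for ETV4. The lowest adjusted p was 0.0258 for ETV5 and 0.00749 for ETV4. At 6 h, ETV4 was at 30.5 and 30.3 FPKM in ΔCRE and at 36.7 and 33.9 FPKM in WT cells, which did not pass the test (-0.21, adjusted p = 0.248).

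The members without a call between genotypes gave intervals that leave small differences possible. At 6 h, ETS2 was at 12.1 and 11.97 FPKM in ΔCRE and at 10.1 and 9.77 FPKM in WT cells (0.25, 95% interval 0.08 to 0.43, adjusted p = 0.0756). ERF was at 26.9 and 27.5 FPKM against 28.4 and 25.7 FPKM (0.01, interval -0.17 to 0.19). ELK1 gave -0.10 (interval -0.34 to 0.13), ETV5 -0.10 (interval -0.22 to 0.02) and GABPA -0.05 (interval -0.32 to 0.22). At 24 h ETS1 was the member called (3.97% of all features were lower and 2.35% higher), and at 0 h likewise (1.03% lower and 0.657% higher). The log2 fold changes of the other 9 members ran from -0.22 (ETV4) to 0.30 (ELF1) at 24 h, and from -0.20 (ELK3) to 0.21 (ELF4) at 0 h.

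**Figure D2:**
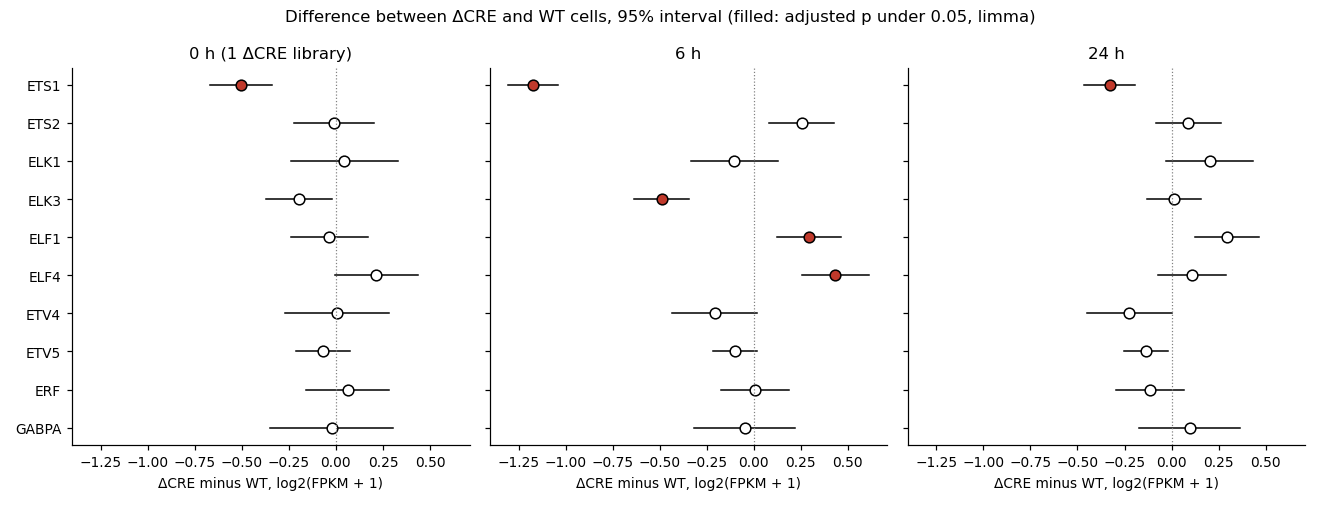
Difference between ΔCRE and WT cells in log2(FPKM + 1) (horizontal axis) for each of the 10 ETS factors (vertical axis) at 0 h, 6 h and 24 h, with 95% intervals from limma on 11 libraries and filled points where the adjusted p is under 0.05. ETS1 lies left of 0 at each time, and ELK3, ELF1 and ELF4 are filled at 6 h.

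Whether the genotype difference itself changed between time points was tested as an interaction. ETS1 was the member that passed: its difference was 0.84 ± 0.08 less negative at 24 h than at 6 h (limma, adjusted p = 0.0247, among 0.142% of all features called higher). It was -0.67 ± 0.09 at 6 h relative to 0 h (adjusted p = 0.0291, among 0.187% called lower). The first held in 15 of 18 alternative fits of the 11 libraries (adjusted p 0.0146 to 0.0800) and was lost without WT 6 h replicate 2, ΔCRE 6 h replicate 2 or ΔCRE 24 h replicate 1. The second, which rests on the lone ΔCRE 0 h library, held in 6 of 17 (adjusted p 0.0190 to 0.133) and was lost without any 1 of 8 libraries (both WT 0 h, both WT 6 h, both ΔCRE 6 h and both ΔCRE 24 h).

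The promoters of ELK3, ELF1 and ELF4 are shown because these are the members besides ETS1 that were called between genotypes. Promoter windows of 300 bases (250 before and 50 after the start) were taken from RefSeq for build GRCh38.p14, where 7 of 10 members matched with 15 windows. For each gene the window with the most CpG is printed in the direction of transcription, with capitals at the ETS core GGAA or its reverse TTCC. ELK3 is at chr12:96194125-96194424 on the plus strand, ELF1 at chr13:41061337-41061636 on the minus strand and ELF4 at chrX:130110448-130110747 on the minus strand.
ELK3: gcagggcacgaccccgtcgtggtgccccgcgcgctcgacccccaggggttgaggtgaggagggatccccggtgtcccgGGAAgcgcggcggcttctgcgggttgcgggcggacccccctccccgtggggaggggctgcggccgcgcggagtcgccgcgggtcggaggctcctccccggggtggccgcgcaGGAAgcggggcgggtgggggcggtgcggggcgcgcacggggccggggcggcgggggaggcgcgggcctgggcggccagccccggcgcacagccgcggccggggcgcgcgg
ELF1: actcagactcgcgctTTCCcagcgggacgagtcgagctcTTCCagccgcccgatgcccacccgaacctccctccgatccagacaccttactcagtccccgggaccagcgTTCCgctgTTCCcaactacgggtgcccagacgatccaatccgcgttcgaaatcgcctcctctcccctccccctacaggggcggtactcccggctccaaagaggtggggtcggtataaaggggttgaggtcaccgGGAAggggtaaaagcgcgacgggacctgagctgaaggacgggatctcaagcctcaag
ELF4: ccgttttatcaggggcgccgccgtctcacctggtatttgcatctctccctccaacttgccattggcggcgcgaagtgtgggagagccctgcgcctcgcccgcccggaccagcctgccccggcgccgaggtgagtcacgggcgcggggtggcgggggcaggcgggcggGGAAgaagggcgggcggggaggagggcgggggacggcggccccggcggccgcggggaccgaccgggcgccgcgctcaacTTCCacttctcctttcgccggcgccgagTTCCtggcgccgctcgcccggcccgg

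The printed windows held 2, 5 and 3 ETS cores for ELK3, ELF1 and ELF4. The core was in 95.5% of all 35116 windows with a median of 3, counted on both strands, so that its presence does not set these genes apart. The AP-1 letters TGAGTCA occurred in the ELF4 window alone of the 15 (first base at -121 from the start) and in 4.95% of all windows. The longer ETS match CCGGAAG occurred in the GABPA window (first base at -66) and in 10.3% of all windows. The NFAT core GGAAA, which overlaps the ETS core, was in 61.2% of all windows. It occurred once in the printed ELF1 window and not in the printed ELK3 or ELF4 window, but 3 times in the second ELK3 window and once in each of the other 2 ELF4 windows. The ELF1 window at chr13:40982850-40983149 held it 2 times, and that at chr13:40982233-40982532 did not hold it. The second ELK3 window also held 8 ETS cores.

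Summed over the 10 members, ETS factor RNA differed most between genotypes at 6 h. The sum was 177 and 170 FPKM in WT and 165 FPKM in ΔCRE cells at 0 h. It was 312 and 308 FPKM in WT and 226 and 220 FPKM in ΔCRE cells at 6 h, and 192 and 188 FPKM against 184 and 173 FPKM at 24 h. ETS1 made up 13.7% of the WT sum at 0 h, 45.8% at 6 h and 19.98% at 24 h, and 9.98%, 28.1% and 16.8% of the ΔCRE sum.

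The 9 members other than ETS1 had means of 150, 168 and 152 FPKM in WT and 149, 160 and 148 FPKM in ΔCRE cells at 0, 6 and 24 h. At 6 h the ΔCRE libraries (162.8 and 157.4 FPKM) lay below the WT libraries (172.8 and 163.2 FPKM), by a narrow margin for the nearest pair. This sum holds ELK3, which was lower in ΔCRE cells, beside ELF1 and ELF4, which were higher. The mean difference of this sum was -7.92 FPKM (ΔCRE minus WT). ELK3 alone, with means of 27.3 FPKM in ΔCRE and 38.8 FPKM in WT cells, had a wider gap than the sum. The mean sum of the members other than ETS1 and ELK3 was therefore slightly higher in ΔCRE cells at 6 h. By group at 6 h, ΔCRE cells held 126% of the WT level for ELF1, ELF2 and ELF4 together, 79.2% for ELK1, ELK3 and ELK4, and 90.0% for ETV1, ETV4 and ETV5. No test was run on the sums.

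**Figure D3:**
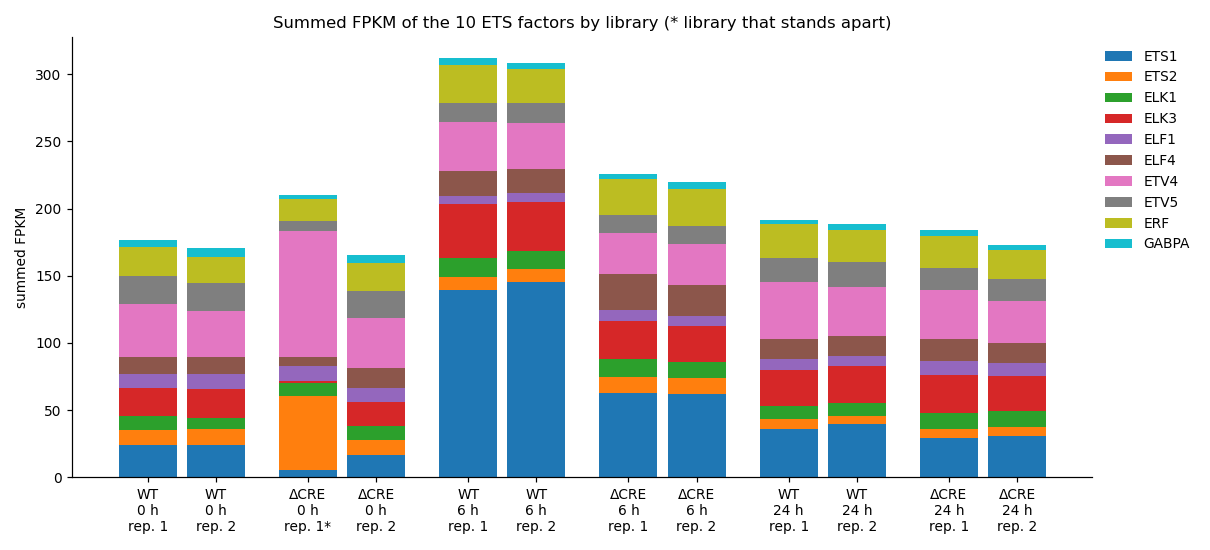
Summed FPKM of the 10 ETS factors (vertical axis, from 0) in each of the 12 libraries (horizontal axis), with 1 colour per factor and an asterisk at the library that stands apart. The WT libraries at 6 h reach 312 and 308 FPKM and the ΔCRE libraries 226 and 220 FPKM, and the ETS1 segment at the base accounts for most of that gap.

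Of the other 18 human ETS genes, 6 had a mean of at least 1 FPKM: ETV1, ETV3, ETV6, ELK4, ELF2 and SPDEF. SPDEF, known from epithelial secretory cells, passed that level through the WT libraries, where it was at 0.855 to 2.02 FPKM, and is given by its values. It was at 0.226 and 0.496 FPKM in ΔCRE and at 0.855 and 1.12 FPKM in WT cells at 6 h. Of the other 5, 2 were lower in ΔCRE cells at 6 h and none was higher, where 6.22% of all features were lower and 3.62% higher. The repressor ETV6 was at 3.71 and 3.58 FPKM against 4.75 and 4.99 FPKM (-0.34 ± 0.08, adjusted p = 0.0265). The repressor ETV3 was at 6.97 and 7.16 FPKM against 8.82 and 8.40 FPKM (-0.25 ± 0.07, adjusted p = 0.0461). With 6 h and 24 h averaged, ETV1, a further PEA3-group factor, was higher (0.23 ± 0.05, adjusted p = 0.0175), as was ELK4, the last of the ternary complex factors (0.19 ± 0.05, adjusted p = 0.0286). ETV6 was lower in the average, none of the 5 was called at 0 h or 24 h, and ELF2 was called in no genotype comparison.

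In WT cells, ETV1 showed the largest stimulation response of these 6. It fell from 10.4 and 11.5 FPKM to 3.54 and 3.22 FPKM at 6 h (-1.44 ± 0.07) and was at 7.85 and 8.19 FPKM at 24 h. At 24 h it was still below the unstimulated level in WT cells (-0.40, adjusted p = 0.00214). In ΔCRE cells ETV1 went from 10.2 FPKM to 4.09 and 3.87 FPKM and then to 10.3 and 9.67 FPKM, where it gave no call against 0 h (-0.03, 95% interval -0.24 to 0.18). Whether the change from 0 h to 24 h differed between genotypes was not tested. The PEA3-group members ETV1 and ETV5 were thus both low at 6 h in both genotypes, while ETV4 gave no call.

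All 25 genes of a list of ETS partners and regulators were tested. Between genotypes at 6 h, 2 of 25 were lower, a share near the 6.22% of all features, and none was higher. They were SP100, a nuclear body protein that binds ETS1 (-0.37 ± 0.05, adjusted p = 0.00441), and DAXX, another ETS1-binding nuclear protein (-0.22 ± 0.06, adjusted p = 0.0401). The symbol DAXX names 5 features, and the one with the highest mean FPKM is given. SP100 was at 27.6 and 27.2 FPKM in ΔCRE and at 34.9 and 36.3 FPKM in WT cells. None was called at 24 h or 0 h, and SRF, the partner of ELK1 and ELK3, and GABPB1, the partner of GABPA, were called in none of the genotype comparisons. In WT cells at 6 h, 9 of 25 were higher and 5 lower (23.3% and 21.1% of all features), led by CBFB (0.75 ± 0.15), RUNX1 (-0.69 ± 0.08), which pairs with CBFB and with ETS1 on DNA, and the ERK kinase MAP2K1 (0.62 ± 0.05).

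A list of 10 genes was drawn from the ETS1 targets named in the study, with FLT1 and KDR entered for its unspecified VEGF receptor. Of these 10, 5 were tested (MMP1, MMP14, PLAU, ENG and NRP1). MMP14 and ENG were lower in ΔCRE cells at 6 h (-1.09 ± 0.08, adjusted p = 0.000144, and -1.08 ± 0.06, adjusted p = 5.42e-05), and PLAU was higher (0.24 ± 0.05, adjusted p = 0.0191). At 24 h MMP14 and ENG were again lower, and the collagenase MMP1 was higher (73.4 and 72.7 FPKM against 43.6 and 43.7 FPKM) together with NRP1. At 0 h ENG was lower and PLAU higher. The study picked MMP14 and ENG on these same samples, so that their direction here is not independent evidence. The study also reported ETS1 ChIP-PCR at both promoters and correlations with ETS1 in tumour specimens and cell lines, which were not examined here.

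By the correlation of log2(FPKM + 1) over the 11 libraries, which share 6 groups, the 5 features most like ETS1 were MAX (0.99), STAT5A (0.99), SMAD3 (0.98), MBP (0.98) and SLC43A3 (0.97). Among the other members, ELK3 was most like it (0.92) and ELF1 was most nearly its mirror image (-0.93). ETS2 had the next largest spread of the members, with an SD of 0.35 on the log2 scale against 1.004 for ETS1. The features most like ETS2 were KPNA2 (0.99), NOP14 (0.98), RANBP1 (0.98), DLEU2L (0.98) and CCNYL1 (0.98). These values describe likeness over a few shared conditions and carry no test.

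In the deposited table, which uses build hg19, ETS1 spans chr11:128328656-128457453, ELK3 chr12:96588207-96661606, ELF1 chr13:41506055-41593508 and ELF4 chrX:129198895-129244688. Within 1 Mb of ETS1 there were 8 features, of which 1 was tested (ARHGAP32), and it was not called between genotypes at 6 h (-0.06, adjusted p = 0.747). Over the tested features in 10 Mb segments around each member, the median difference at 6 h lay between -0.01 and 0.07. The segment around ELK3 had a median of 0.02, that around ELF1 0.05 and that around ELF4 0.01.

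In the library labelled ΔCRE 0 h replicate 1, the ETS family had another makeup. ETS1 was at 5.08 FPKM, below the 16.5 to 145 FPKM of the other 11, and ELK3 was at 1.60 FPKM, below their 18.3 to 40.6 FPKM. ETV4 was at 94.1 FPKM and ETS2 at 55.0 FPKM, above the highest of the others, 42.2 and 12.1 FPKM. ELK1, ELF1 and GABPA lay inside the range of the other libraries, and ELF4, ETV5 and ERF below it. These places are in FPKM as deposited, where this library summed to 1423334.5 against 566255 to 651080 elsewhere. With equal library sums its values would be lower. ETV4, at 2.23 times the highest of the others, would then not lie above all of them, whereas ETS2, at 4.55 times, would. ELK1, ELF1 and GABPA would lie below the others. No test was run on that scale.

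ELF3, an epithelium-specific ETS factor, was the most abundant ETS gene of that library at 142 FPKM, against 0.116 to 0.397 FPKM elsewhere. The 10 members made up 53.0% of the sum over 28 ETS genes there, 397 FPKM, and 81.9% to 91.6% in the means of the other groups. The library also had the gut epithelial markers described above, whose part in these values was not tested. Had it been used as a ΔCRE replicate, the fit with all 12 libraries would give ETS1 a log2 fold change of -1.27 at 0 h in place of -0.51.

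**Figure D4:**
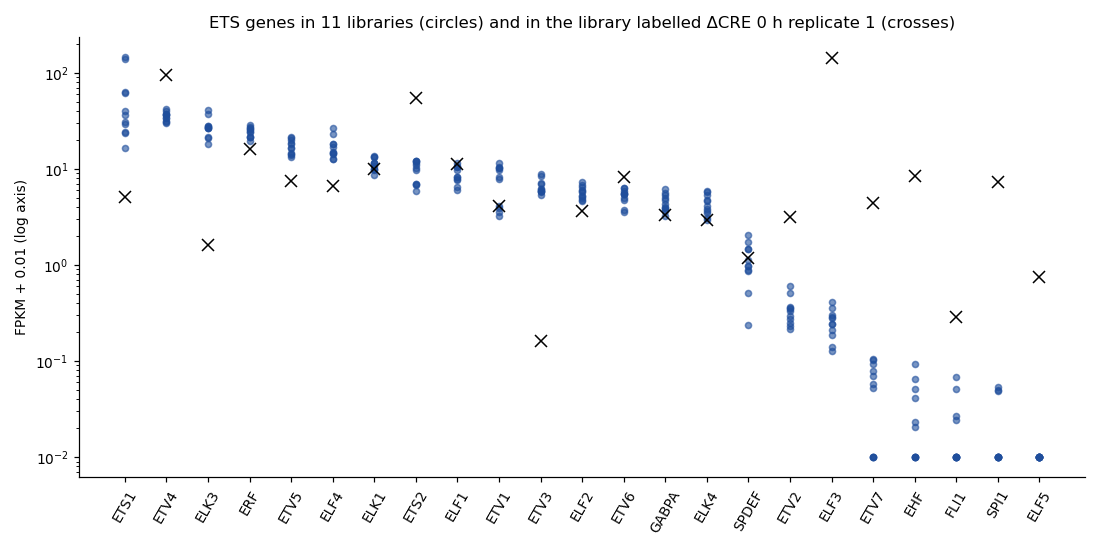
FPKM + 0.01 on a log axis (vertical) for 23 ETS genes with at least 0.2 FPKM in any library (horizontal, ordered by mean FPKM over 11 libraries), with circles for the 11 libraries and crosses for the library labelled ΔCRE 0 h replicate 1. The cross lies below the circles for ETS1 and ELK3 and above them for ETV4, ETS2 and ELF3.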

How the data were processed

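RNA-seq was performed on MDA-MB-231 cells, 2 genotypes at 3 time points with 2 replicates each. Per the study's methods, stranded mRNA libraries were sequenced on an Illumina NextSeq instrument, mapped to hg19 with TopHat and summarised with Cufflinks. The authors deposited FPKM per feature, with no fragment counts, so the depth is not known and counting intervals could not be given. The annotation and any scaling between libraries are not given in the sources used here. 2 columns with misspelt time points in their names were matched to ΔCRE 6 h replicate 2 and ΔCRE 0 h replicate 2 by genotype, the remaining time digit and replicate number. The authors' tests were not used.

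From the deposited FPKM, log2(FPKM + 1) was computed and fitted in R 4.3.3 by limma 3.58.1, as 1 linear model of 6 groups over 11 libraries (without ΔCRE 0 h replicate 1, given apart) with trended empirical Bayes variances, with features of mean FPKM of at least 1, Benjamini-Hochberg adjustment over 11256 features and a threshold of 0.05. Fold changes on this scale understate the change of low genes. Errors beside log2 values are standard errors. Summaries used Python 3.11.15 with pandas 2.3.3. The fit was tested on simulated data. Replicates are biological per the methods.

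Named genes were all 10 members, other ETS genes with a mean of at least 1 FPKM or at 10 FPKM or more in the outlying library, up to 3 called partners or targets per comparison by size of change, called features near ETS1, and the 5 features most like ETS1 and ETS2. ARHGAP32, ATP5J, SRF and GABPB1 were named after their values were seen. Members and lists were chosen with earlier results of these data known. Alternatives were another pseudocount (0.1), other filters, quantile normalization, equal library sums (TPM), all 12 libraries, a replicate block, no trend, a fit per time point and leaving out each library. Promoter windows were taken from RefSeq.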

Additional observations from a re-analysis of the deposited data

Results flagged for a closer look

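The genotype difference in ETS1 changed between time points by a test of the change itself. It was 0.84 higher on the log2 scale at 24 h than at 6 h, and -0.67 at 6 h relative to 0 h. The second value rests on 1 unstimulated ΔCRE library.

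The library labelled ΔCRE 0 h replicate 1, which enters no comparison, held ETS genes well above every WT library in FPKM as deposited. Its FPKM sum was also the highest, 1423334.5 against 566255 to 651080 in the other 11 libraries. ELF3 was at 141.9 FPKM, ETV4 at 94.1 FPKM and ETS2 at 55.0 FPKM. With equal library sums, ETV4 would not lie above every WT library. Low ETS genes were also raised there: EHF, an epithelial factor, was at 8.42 FPKM and SPI1, a myeloid factor, at 7.32 FPKM, followed by ETV7 at 4.39 FPKM and ETV2 at 3.14 FPKM. EHF, SPI1, ETV7 and ETV2 were named after their values were seen. In the other 11 libraries, EHF did not exceed 0.0828 FPKM and SPI1 0.0437 FPKM.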

How the results depend on the processing

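Of the 50 member calls, 50 were kept with a pseudocount of 0.1, 48 without the filter, 48 of 48 with a mean of at least 5 FPKM, 46 after quantile normalization, 45 with equal library sums (TPM), 49 without a trend and 43 to 48 when 1 library was left out (37 of 37 without ΔCRE 0 h replicate 2). With all 12 libraries 8 were kept and 3 turned sign. Of 47 further uncalled member values, 19 turned sign and 8 were called in some setting.

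With all 12 libraries, which takes the library that stands apart as a replicate, limma called 2 members for WT 6 h against 0 h, 1 for WT 24 h against 0 h, 1 for WT 24 h against 6 h, 3 for ΔCRE 6 h against 0 h, 1 for ΔCRE 24 h against 0 h and 0 for ΔCRE 24 h against 6 h. It called 0 between genotypes at 0 h, 6 h, 24 h, in the average and in both interactions, where 0 to 2 of the 10 members had an unadjusted p under 0.05. ETV5 then gave 0.12 and 0.40 in ΔCRE cells at 6 h and 24 h against 0 h, and the change of the genotype difference from 0 h to 6 h was 0.096 for ETS1 and 1.15 for ELK3. Over all features, the calls between genotypes numbered 17 at 0 h, 20 at 6 h, 17 at 24 h and 93 in the average, against 190, 1107, 712 and 1956 with 11 libraries. For stimulation they numbered 857, 1221 and 582 in WT cells against 4993, 6151 and 5267, and 1011, 1302 and 845 in ΔCRE cells against 3359, 4674 and 5586. The interactions had 0 (81 at an unadjusted p under 0.05) and 4, against 18 and 30.

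At 24 h, 2 members were called between genotypes after quantile normalization and 0 in the fit of the 24 h libraries alone (3 at an unadjusted p under 0.05). For the change from 0 h to 6 h, 0 members were called after quantile normalization, with TPM and without a trend (3 unadjusted in each). The cause was not tested. ELK3 at 24 h was -0.012 with TPM. Over all features, 856 were called between genotypes at 24 h after quantile normalization, against 712 in the main fit. The fit per time point called 717 at 6 h and 324 at 24 h. The interaction of 24 h with 6 h had 11 calls after quantile normalization and 8 without a trend, and that of 6 h with 0 h had 47 without the filter.

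Samples with the same replicate number were compared over 10 pairs of groups, with correlations of -0.07 to 0.20 and 2 over 0.1, so the numbers were not taken to pair the samples. With a replicate block, 3 members were called between genotypes at 24 h and 7 in the average, where 1 and 4 were called without it. Over all features the block gave 655 calls between genotypes at 0 h, 1805 at 6 h, 1407 at 24 h, 3006 in the average and 72 for the interaction of 6 h with 0 h. Without the block these numbered 190, 1107, 712, 1956 and 30. An effect shared by libraries of the same replicate number was not tested beyond the correlations and this block.

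When 1 library was left out, 4 to 8 members were called for WT 24 h against 6 h. Between genotypes 0 to 1 were called at 0 h and at 24 h, 2 to 4 at 6 h and 0 to 1 for each interaction. Over all features there were 106 to 159 calls at 0 h, 321 to 1097 at 6 h and 165 to 717 at 24 h, and 3 to 21 for the interaction of 24 h with 6 h. Uncalled values near 0 crossed it: ERF ran from -0.062 to 0.077 and GABPA from -0.19 to 0.092 at 6 h, ETS2 from -0.0059 to 0.18 and ELK3 from -0.030 to 0.053 at 24 h, and ELK1 from -0.00032 to 0.10 and GABPA from -0.047 to 0.094 in the average. Without counts, the depth behind each value is not known.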
